A study of Homo sapiens with 18 samples.

Results

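MYC and 9 genes of the nucleolar machinery that makes and processes ribosomal RNA (NCL, NPM1, NOLC1, FBL, NOP56, NOP58, DKC1, GAR1 and POLR1B) were followed across 2 melanoma cell lines and 2 inhibitors. The genes were chosen by name, as well-known nucleolar genes and the transcription factor that drives many of them, with earlier results of these data known. All 10 were found among the 20705 genes of the count table, and with 225 to 58340 counts per library none of them was limited by low expression.

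Ribosomes are built in the nucleolus, where RNA polymerase I copies the ribosomal RNA genes and small nucleolar RNA-protein particles (snoRNPs) guide the modification and cutting of the transcript. Box C/D snoRNPs add methyl groups to ribose and contain FBL, NOP56 and NOP58, whereas box H/ACA snoRNPs turn uridine into pseudouridine and contain DKC1 and GAR1. MYC binds DNA with its partner MAX and raises the output of this machinery in growing cells, and proteins of the MXD family compete with it for MAX.

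CHL1 and A375 are established human melanoma lines. CHL1 cells were grown in DMEM and A375 cells in RPMI-1640, each with fetal bovine serum. Both received DMSO alone (control), the CDK4/6 inhibitor palbociclib at 1 μM (CDK4/6i) for 72 hours or 6 days, or the PRMT5 inhibitor GSK3326595 at 500 nM (PRMT5i) for 72 hours. CDK4 and CDK6 are kinases that release cells into S phase, and PRMT5 is an enzyme that methylates arginine on proteins such as histones and splicing factors. Each of the 9 groups held 2 libraries of poly-A RNA. CHL1 had a control at 72 hours, with which its 3 treated groups, the 6-day group included, were compared. A375 had a control at 72 hours and another at 6 days, and each of its treated groups was compared with the control of its own time. The A375 libraries of 72 hours carry another library set name than those of 6 days, which share theirs with CHL1. The 6-day A375 libraries carry no replicate number, and are called replicate 1 and 2 by the order of their names. The methods give 2 replicates for each culture condition but not whether these were separate experiments, so the p-values measure the spread between these libraries, which may be technical.

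Library totals ranged from 16213475 to 37424081 counts, and replicates of every group differed by more than counting noise (chi-square per degree of freedom 7.6 to 118). Some libraries stood apart in their dependence on base composition. The log2 level of the most GC-rich genes relative to the most GC-poor, set against the other libraries of the line, was -2.70 and -2.10 for PRMT5i in CHL1 and -2.41 and -1.20 for the 6-day A375 controls. The other 14 libraries lay between -0.37 and 0.63. The main results that rest on these 4 libraries are therefore given with and without a correction for GC content (GC offset). The melanocyte regulator MITF was present in both lines, at 63.8 to 144 CPM (counts scaled to library size) in CHL1 and 81.3 to 211 CPM in A375. The pigment genes PMEL and TYR were at most 3.25 and 5.02 CPM in any library, and DCT was at 36.3 to 142 CPM in CHL1 but at most 1.79 CPM in A375. S100B was at 11.2 to 128 CPM in CHL1 and 3.57 to 108.5 CPM in A375. SOX10 and MLANA, planned as markers as well, gave no values here. Reads carried no molecular identifiers and are not independent molecules. In RNA from whole cultures, fewer cells that express a gene and less RNA per cell cannot be told apart.

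Promoters (250 bases before to 50 after the start, RefSeq, GRCh38.p14) were given for 7 of the 10 genes. They were rich in CpG, with a median of 34 CpG per promoter and a range of 18 to 42, beside a median of 14 over 27305 promoters. The canonical E-box CACGTG, the sequence that MYC and MAX bind, was searched on both strands and was present in 1 of the 7, FBL, and in 7.43% of all promoters. The E2F motifs TTTCCCGC and TTTGGCGC, searched likewise, were in 0 of the 7 and in 2.31% of all. A match is a description of the letters and not of binding. The FBL window with its E-box in capitals begins 5′ of the motif at chr19:39846356-39846385, minus strand, where the motif starts 6 bases after the transcription start. The last 60 bases before the start are shown for FBL and NOP56, which code for partners in a particle, and for NPM1 and NCL, the most abundant transcripts of the set in CHL1, with every CpG in capitals. They come from chr19:39846380-39846439 (minus strand), chr20:2652572-2652631 (plus), chr5:171387789-171387848 (plus) and chr2:231464485-231464544 (minus).
FBL E-box: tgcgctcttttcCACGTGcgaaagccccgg
FBL: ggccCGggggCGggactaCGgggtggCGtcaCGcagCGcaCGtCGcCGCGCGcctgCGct
NOP56: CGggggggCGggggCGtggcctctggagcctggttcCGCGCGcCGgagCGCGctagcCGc
NPM1: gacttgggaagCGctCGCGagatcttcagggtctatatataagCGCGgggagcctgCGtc
NCL: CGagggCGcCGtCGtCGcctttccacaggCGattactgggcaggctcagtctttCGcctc

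The 10 genes lie on 8 chromosomes (GRCh37). On chromosome 2 are NCL (chr2:232318242-232348352, minus strand), NOP58 (chr2:203130459-203168384, plus strand) and the gene of the RNA polymerase I subunit POLR1B (chr2:113299492-113337395, plus strand). MYC is at chr8:128747680-128755197, NPM1 at chr5:170814120-170838814, NOLC1 at chr10:103911933-103923628, NOP56 at chr20:2633239-2639039, DKC1 at chrX:153991017-154005964 and GAR1 at chr4:110736666-110745896, all on the plus strand. FBL is on the minus strand at chr19:40325098-40337019. NCL, NOP56 and NOP58 each hold 3 annotated snoRNA genes on their own strand, and DKC1 holds 2, so that 4 of the 10 genes are also hosts of snoRNAs. Counting by gene symbol carries some limits. NPM1 has 49 annotated pseudogenes, 1 of which is in the table, so reads may be shared with or lost to its copies. MYC overlaps CASC11 on the opposite strand, and whether the counting used strand is not certain. GC content of the longest transcript ran from 37.9% in NPM1, 40.9% in NOP58, 42.8% in NCL, 43% in POLR1B and 43.1% in GAR1 to 45.2% in DKC1, 47.8% in NOLC1, 48.8% in MYC, 50.9% in NOP56 and 54.3% in FBL. The median of all genes that averaged at least 1 CPM was 47.5%.

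MYC was a high-level gene in CHL1 and a low-level one in A375. Levels are given as RPKM, which divides counts by transcript length and by the TMM-adjusted library size, a scale on which genes can be compared. The CHL1 controls were at 38.0 and 33.5 RPKM and the A375 controls at 72 hours at 3.90 and 4.03 RPKM. The groups did not overlap, and the difference was 9.01-fold (log2 difference 3.17, SE 0.22, adjusted p = 4.5e-10, edgeR quasi-likelihood test over all genes). In the order of the 9 groups all 4 CHL1 groups came first, with means of 39.4 RPKM at 72 hours of CDK4/6i, 36 at 6 days of CDK4/6i, 35.8 in the control and 23.8 under PRMT5i. The first 3 of these overlapped with their neighbours, and the PRMT5i group lay below them. The A375 means followed at 5.12 RPKM under PRMT5i, 4.77 and 4.68 at 72 hours and 6 days of CDK4/6i, 3.97 in the control at 72 hours and 3.13 in the control at 6 days. Here both CDK4/6i groups and the 72-hour control overlapped in turn, while the first and the last of the 5 groups did not overlap with their neighbours. A library of the 6-day CDK4/6i group, at 5.97 RPKM, was the highest of the line.

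**Figure D1:**
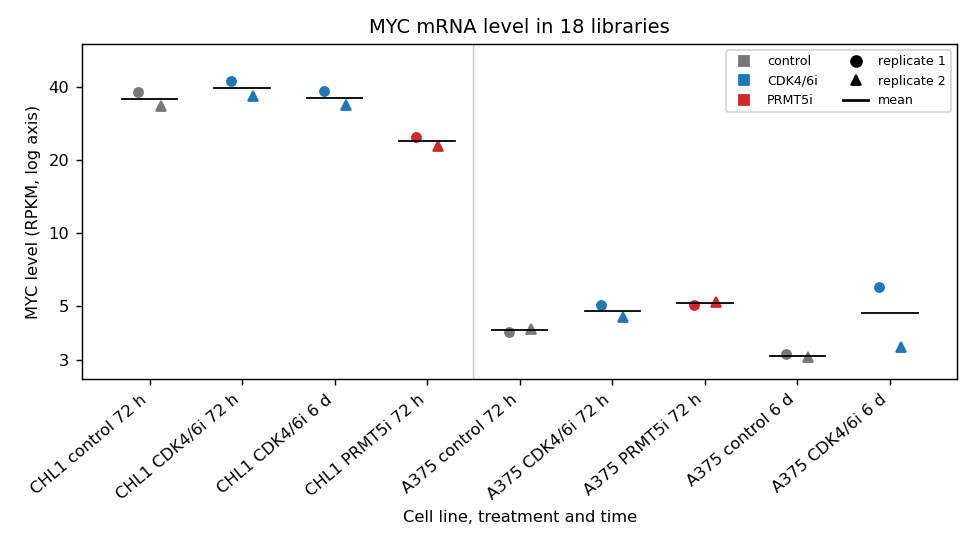
MYC level in each of the 18 libraries (RPKM, log axis) by cell line, treatment and time, with points for replicates and a line for the mean of 2. All 8 CHL1 libraries lay between 22.8 and 42.2 RPKM and all 10 A375 libraries between 3.07 and 5.97 RPKM, and the 2 CHL1 PRMT5i libraries were the lowest of their line.

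The untreated lines also differed in part of the nucleolar set. Between the 72-hour controls 5 of the 10 genes were called, 2 higher and 3 lower in CHL1, in a comparison that called 58.9% of all genes, 29.3% higher and 29.6% lower. NCL, an abundant RNA-binding protein of the nucleolus, was at 250.2 and 203 RPKM in CHL1 and 70.6 and 99.4 in A375, so both CHL1 libraries were above both A375 libraries (2.67-fold higher, log2 difference 1.41, SE 0.27, adjusted p = 0.00020). FBL, the methyltransferase of box C/D snoRNPs, was at 74.0 and 59.5 RPKM in CHL1 and 123 and 149 in A375, again without overlap (2.04-fold lower in CHL1, log2 -1.02, SE 0.21, adjusted p = 0.00040). NPM1, a nucleolar chaperone that helps to assemble ribosomes, and NOLC1, a chaperone of snoRNPs, were lower in CHL1 by smaller amounts (log2 -0.55, adjusted p = 0.047, and log2 -0.54, adjusted p = 0.020), and both calls were lost without replicate 2 of either control. That of NPM1 was also lost without replicate 1 of the CHL1 control (adjusted p = 0.092) and over the genes with a GC value (adjusted p = 0.051). With the GC offset NPM1 and NOLC1 were called (log2 -0.91, adjusted p = 0.0016, and log2 -0.63, adjusted p = 0.0039). POLR1B was then called lower too (log2 -0.44, adjusted p = 0.011). The offset gave 6 calls, 2 higher and 4 lower, beside 66.3% of the genes with a GC value in either direction. The levels of NPM1 and NCL stood in a different proportion, with a ratio of 3.16 in the CHL1 control and 12.4 in the A375 control. That ratio was between 2.32 and 3.64 in the 4 CHL1 groups and between 11.0 and 13.9 in the 5 A375 groups. Cell line, medium and library set differ together here and cannot be told apart.

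Under CDK4/6i in CHL1 MYC passed the test at neither time, whereas 3 nucleolar genes, FBL, NPM1 and NOP58, fell by 6 days. At 72 hours 0 of the 10 genes were called by edgeR, beside 4.98% of all genes, and 2 of them, FBL and GAR1, had an unadjusted p below 0.05. DESeq2 called 1 gene, FBL. MYC was at 42.2 and 36.7 RPKM and overlapped with its control (log2 fold change 0.14, 95% interval -0.21 to 0.49). The median log2 fold change of the 9 nucleolar genes was -0.33, beside 0 over all genes. Both treated libraries were below both controls for 6 of the 10 genes, as they were for 27.9% of all genes. FBL was at 46.4 and 38.4 RPKM beside 74.0 and 59.5 in the control (log2 -0.66, SE 0.19, adjusted p = 0.068), and with the GC offset it passed the test (log2 -0.69, adjusted p = 0.014).

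At 6 days 3 of the 10 genes had fallen in CHL1 and none had risen, beside 7.8% of all genes that fell and 16.6% that were called in either direction. The control here is that of 72 hours, so drug and time in culture differ together and cannot be told apart. FBL was at 39.1 and 31.5 RPKM, 1.87-fold below the control (log2 -0.90, SE 0.19, adjusted p = 0.0084). NPM1 was at 449.8 and 353 RPKM beside 766.5 and 661 in the control and fell 1.76-fold (log2 -0.82, SE 0.23, adjusted p = 0.032). NOP58, a box C/D core protein, was at 48.6 and 41.8 RPKM beside 73.9 and 68.5 and fell 1.56-fold (log2 -0.64, SE 0.16, adjusted p = 0.018). In these 3 genes both treated libraries were below both controls, and so they were in 8 of the 10 genes, beside 29.5% of all genes. The box H/ACA genes DKC1, the pseudouridine synthase, and GAR1, its partner, were lower without passing the test (log2 -0.59, adjusted p = 0.068, and log2 -0.46, adjusted p = 0.21), as was NOLC1 (log2 -0.49, adjusted p = 0.075). DESeq2 called DKC1 and NOLC1 lower (adjusted p = 0.039 and 0.048), as did edgeR with the replicate number as a block (0.032 and 0.044). Neither passed in edgeR with the GC offset (adjusted p = 0.065 and 0.061). MYC was at 38.5 and 33.5 RPKM (log2 0.03, 95% interval -0.32 to 0.37), and NOP56, the other box C/D scaffold, overlapped with its control (log2 -0.16, adjusted p = 0.54).

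The 3 calls held with the GC offset, at log2 -0.90 for FBL, -0.86 for NPM1 and -0.58 for NOP58. They depended on single libraries: 0 genes were called without replicate 1 of the control or without replicate 2 of the 6-day group, 1 without replicate 2 of the control and 3 without replicate 1 of the 6-day group. Between 6 days and 72 hours of CDK4/6i itself 0 of the 10 genes differed (edgeR, beside 0.0145% of all genes; 0 with an unadjusted p below 0.05 and 0 by DESeq2), with log2 differences from -0.39 in NPM1 to 0.08 in GAR1. The 6-day libraries lay below both 72-hour libraries in 7 genes, beside 20.9% of all genes. The fall at 6 days is thus not shown to exceed that at 72 hours.

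**Figure D2:**
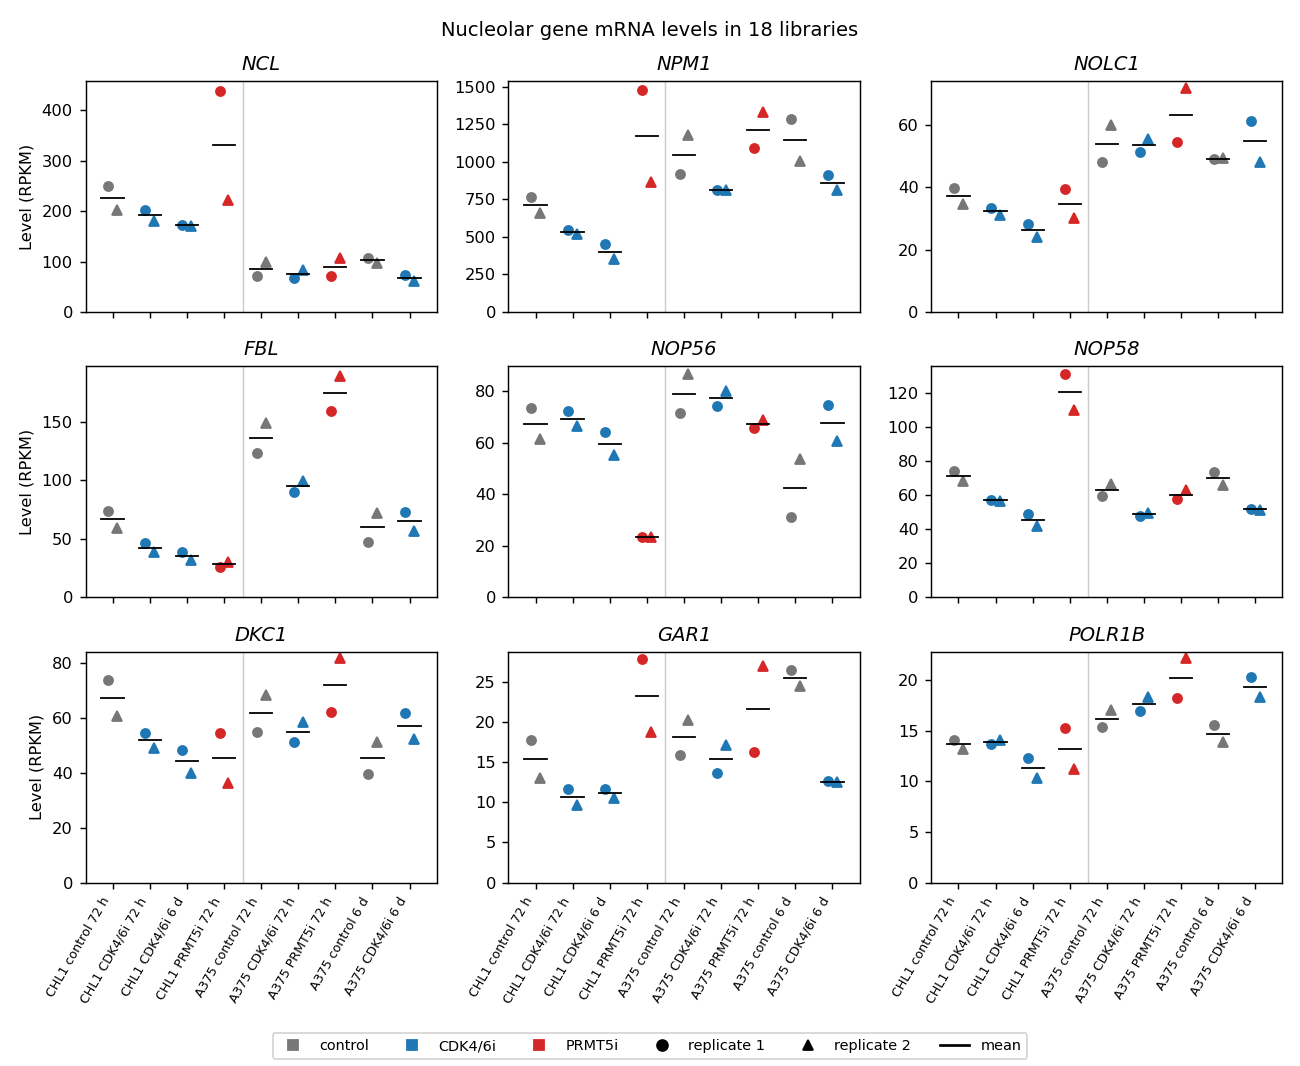
Level of the 9 nucleolar genes (RPKM, axes from 0) in each of the 18 libraries, with points for replicates and a line for the mean of 2. In CHL1 under PRMT5i the 2 libraries lay above the other CHL1 libraries for NOP58, at 131 and 110 RPKM, and below them for NOP56, at 23.5 and 23.3 RPKM.

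In A375 72 hours of CDK4/6i called 0 of the 10 genes by edgeR, beside 13.3% of all genes, with 2 genes, FBL and NOP58, at an unadjusted p below 0.05 and 0 called by DESeq2. FBL was at 90.3 and 99.6 RPKM beside 123 and 149 in the control (log2 -0.57, SE 0.22, adjusted p = 0.098), and NOP58 at 47.7 and 49.5 beside 59.4 and 66.5 (log2 -0.43, SE 0.17, adjusted p = 0.099). Neither gene overlapped with its control. FBL passed the test with the GC offset (log2 -0.70, adjusted p = 0.0066). With the replicate number as a block, over the 6 libraries that carry one, 6 genes were called, all lower (FBL, NOP58, NPM1, NCL, DKC1 and GAR1), beside 8752 of the 20705 genes. MYC was at 5.04 and 4.51 RPKM, above both controls by a difference that did not pass the test (log2 0.21, 95% interval -0.31 to 0.72). Both treated libraries were below both controls for 3 of the 10 genes, beside 29.2% of all genes, and above for 1, beside 37.1%. The response at 72 hours was compared between the lines, and 0 of the 10 genes differed (edgeR, beside 0.642% of all genes; 0 with an unadjusted p below 0.05 and 0 by DESeq2). For FBL the difference between the lines was -0.14 on the log2 scale, with a 95% interval from -0.76 to 0.48, which also leaves room for unequal responses.

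At 6 days in A375 4 of the 10 genes were called against the 6-day control, 1 higher and 3 lower, beside 43.1% of all genes (21.8% higher and 21.3% lower), so that the count was near the background. GAR1 was at 12.7 and 12.5 RPKM beside 26.5 and 24.5 in the control and fell 2.03-fold (log2 -1.02, SE 0.23, adjusted p = 0.0028). NCL was at 73.3 and 60.4 RPKM beside 106 and 98.0 (log2 -0.61, adjusted p = 0.039) and NOP58 at 51.9 and 51.2 beside 73.7 and 66.0 (log2 -0.44, adjusted p = 0.042), and both fell. NOP56 was at 74.7 and 60.7 RPKM beside 31.3 and 53.8 and rose 1.58-fold (log2 0.66, SE 0.23, adjusted p = 0.031). For each of these 4 genes the treated libraries did not overlap with the controls. Over all 10 genes treated libraries lay above both controls in 4 and below in 4, beside 37.6% and 30.5% of all genes. MYC was at 5.97 and 3.40 RPKM beside 3.18 and 3.07 (log2 0.58, 95% interval 0.08 to 1.09, adjusted p = 0.060), with its treated replicates far apart.

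These A375 values rest on the 6-day controls, whose GC trend stood apart. With the GC offset 2 genes were called, GAR1 (log2 -0.76, adjusted p = 0.018) and POLR1B (log2 0.67, adjusted p = 0.0023), beside 37.7% of the genes with a GC value. NOP58 was then at log2 -0.01 and NOP56 at 0.33. Against the 72-hour control only FBL was called (log2 -1.11, adjusted p = 0.0012), and NOP56 was at -0.27. With that control and the GC offset together 3 genes were called, all lower, FBL (log2 -1.05), NOP58 and GAR1. This stood beside 7216 of the 16356 genes with a GC value. Leaving out a library changed which genes were called. GAR1 stayed at log2 -1.05 to -0.99, while NCL was at -0.77 to -0.47, NOP58 at -0.49 to -0.39 and NOP56 at 0.30 to 1.14. The 6-day control itself differed from the 72-hour control in 2 of the 10 genes, both lower, where 47.8% of all genes were called and 23.8% were lower. FBL was at 47.5 and 71.8 RPKM beside 123 and 149 (log2 -1.22, SE 0.22, adjusted p = 0.00051) and NOP56 at 31.3 and 53.8 beside 71.5 and 86.4 (log2 -0.93, SE 0.23, adjusted p = 0.0045). Between these controls 6 genes were lower with the GC offset, FBL at log2 -0.69, NOP56 at -0.65, NPM1 at -0.77, NOP58 at -0.43, DKC1 at -0.66 and POLR1B at -0.54. Of all genes with a GC value 36.2% were then called in either direction. Time and library set differ together between these controls and cannot be told apart. The response at 6 days minus that at 72 hours differed in 0 of the 10 genes (edgeR, beside 1.08% of all genes; 0 by DESeq2, 0 with the GC offset and 3 with an unadjusted p below 0.05, FBL, NOP56 and GAR1).

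**Figure D3:**
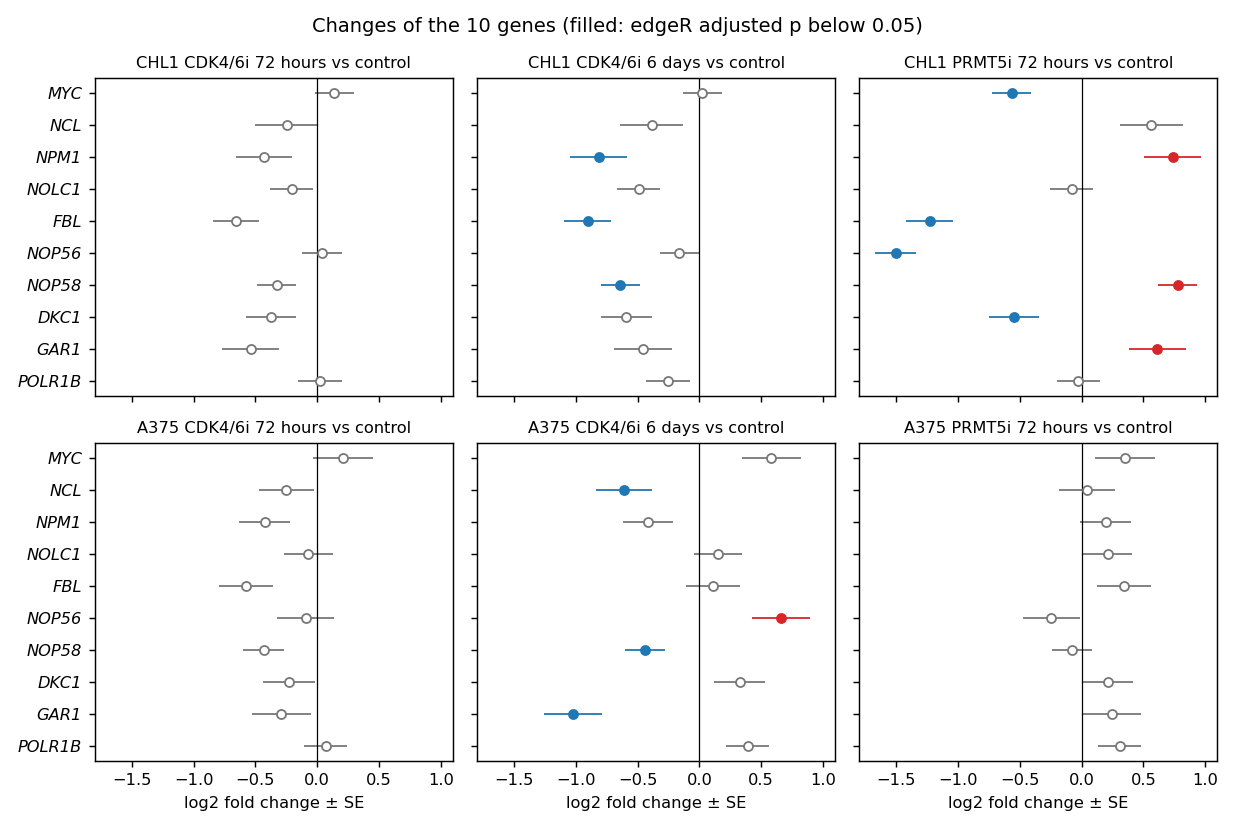
Log2 fold change and SE of the 10 genes in the 6 comparisons of treated with control cells, 2 libraries a group. Filled points passed the edgeR test (blue fell, red rose), and open points did not. Calls were 0, 3 and 7 in the upper row for CHL1 and 0, 4 and 0 in the lower row for A375.

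Under PRMT5i in CHL1 genes of the same particle moved in opposite directions where no GC offset was applied, with NOP56 and FBL lower and NOP58 higher. Here 7 of the 10 genes were called, 3 higher and 4 lower, in a comparison that called 54% of all genes, 26.4% higher and 27.6% lower. Among the box C/D core genes NOP56 was at 23.5 and 23.3 RPKM beside 73.5 and 61.2 in the control and fell 2.84-fold (log2 -1.50, SE 0.16, adjusted p = 8.3e-05). FBL was at 26.0 and 30.2 RPKM beside 74.0 and 59.5 and fell 2.34-fold (log2 -1.23, SE 0.19, adjusted p = 0.00030). NOP58 was at 131 and 110 RPKM beside 73.9 and 68.5 and rose 1.72-fold (log2 0.78, SE 0.16, adjusted p = 0.0014). All 3 genes were without overlap between treated and control libraries.

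The box H/ACA pair split likewise. DKC1 was at 54.6 and 36.4 RPKM beside 73.8 and 60.8 and fell 1.46-fold (log2 -0.55, SE 0.20, adjusted p = 0.039), whereas GAR1 was at 27.9 and 18.7 beside 17.8 and 13.1 and rose 1.53-fold (log2 0.61, SE 0.23, adjusted p = 0.040). Neither pair of groups overlapped, but the treated replicates were far apart in both. NPM1 was at 1482 and 868 RPKM beside 766.5 and 661 and rose 1.67-fold (log2 0.74, SE 0.23, adjusted p = 0.017), again with unequal replicates. NCL was at 439 and 222 RPKM beside 250.2 and 203, so that the groups overlapped (log2 0.56, 95% interval 0.01 to 1.12, adjusted p = 0.082). NOLC1 and POLR1B also overlapped with their controls (log2 -0.08 and -0.03). MYC was at 24.9 and 22.8 RPKM beside 38.0 and 33.5 and fell 1.48-fold (log2 -0.57, SE 0.16, adjusted p = 0.0097), with both treated libraries below both controls. Treated libraries lay above the controls in 3 genes, beside 36.2% of all genes, and below in 4, beside 39.6%.

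The direction of these changes moved with GC content. The genes that rose were NPM1, NOP58 and GAR1, of 37.9 to 43.1% GC, and those that fell were DKC1, MYC, NOP56 and FBL, of 45.2 to 54.3% GC, in libraries in which GC-rich genes were low throughout. With the GC offset 3 of the 10 genes were called, all lower, beside 29% of the 16356 genes with a GC value. NOP56 was at log2 -1.08 (adjusted p = 0.00031), DKC1 at -0.76 (adjusted p = 0.0085) and POLR1B at -0.52 (adjusted p = 0.015). NOP58 was then at 0.05, GAR1 at 0.13 and NCL at 0.04, NPM1 reversed to -0.27 (adjusted p = 0.40), and FBL and MYC missed the threshold at -0.42 (adjusted p = 0.062) and -0.37 (adjusted p = 0.058). The fall of NOP56 passed the test under all 12 alternatives run, the GC offset included, with adjusted p from 6.3e-14 to 0.0023. Leaving out single libraries gave 4 calls without replicate 2 of the control, 5 without its replicate 1, 5 without replicate 1 of the PRMT5i group and 7 without its replicate 2. The call of MYC was lost without replicate 1 of the control (log2 -0.47, adjusted p = 0.099), those of NPM1 and GAR1 without replicate 1 of the PRMT5i group (log2 0.31 and 0.30) or replicate 2 of the control, and that of DKC1 without any of 3 libraries. Fitting only the compared groups also lost the calls of GAR1 and DKC1 (adjusted p = 0.061 and 0.15), and median-of-ratios scaling that of DKC1 (adjusted p = 0.059). The part of GC content in the other changes was not tested beyond this offset.

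**Figure D4:**
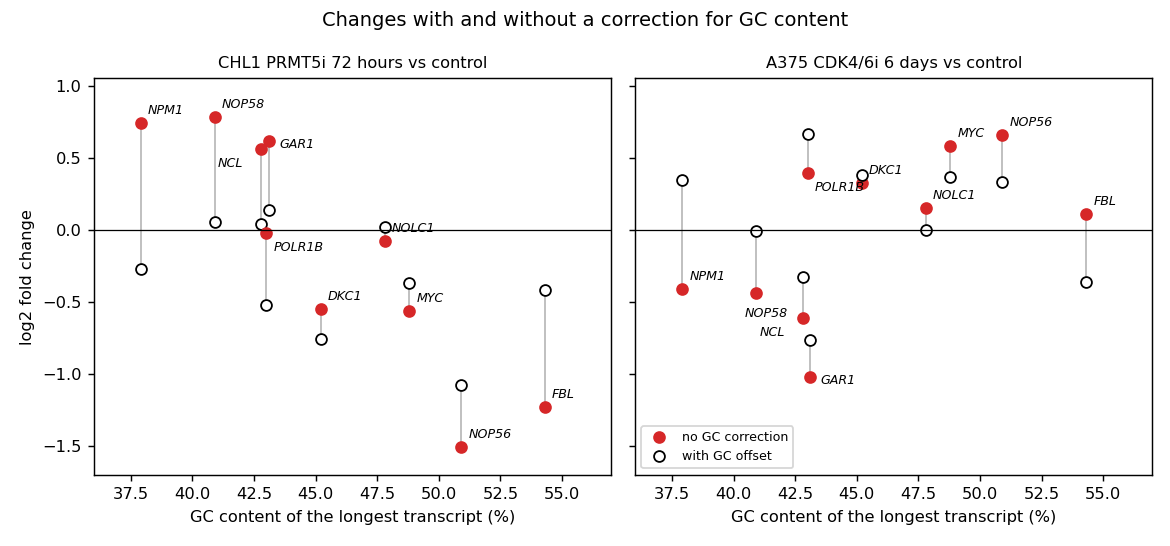
Log2 fold change of the 10 genes against GC content of the longest transcript (%), without a correction (red) and with the GC offset (open), for CHL1 PRMT5i and for A375 CDK4/6i at 6 days. In CHL1 NPM1 moved from 0.74 to -0.27 and FBL from -1.23 to -0.42, and NOP56 stayed lowest at -1.08.

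The split within the particles can be restated as ratios of the same levels, which adds no separate evidence. NOP58 and NOP56, which form the scaffold of the box C/D particle together, were at a ratio of 1.06 in the CHL1 control and 5.13 under PRMT5i. On the log2 scale the treated libraries were at 2.48 and 2.24 and the controls at 0.01 and 0.16. The only other group with both libraries above the CHL1 controls was the A375 control at 6 days, at 1.24 and 0.29, and it too had the GC trend. In the other 6 groups the ratio was between 0.63 and 0.90, below the CHL1 control. For GAR1 relative to DKC1 the ratio was 0.23 in the CHL1 control and 0.51 under PRMT5i, beside 0.57 for the 6-day A375 control and a range of 0.20 to 0.29 over the remaining groups. These ratios are a description, and a ratio of genes that differ in GC content carries the GC trend with it.

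**Figure D5:**
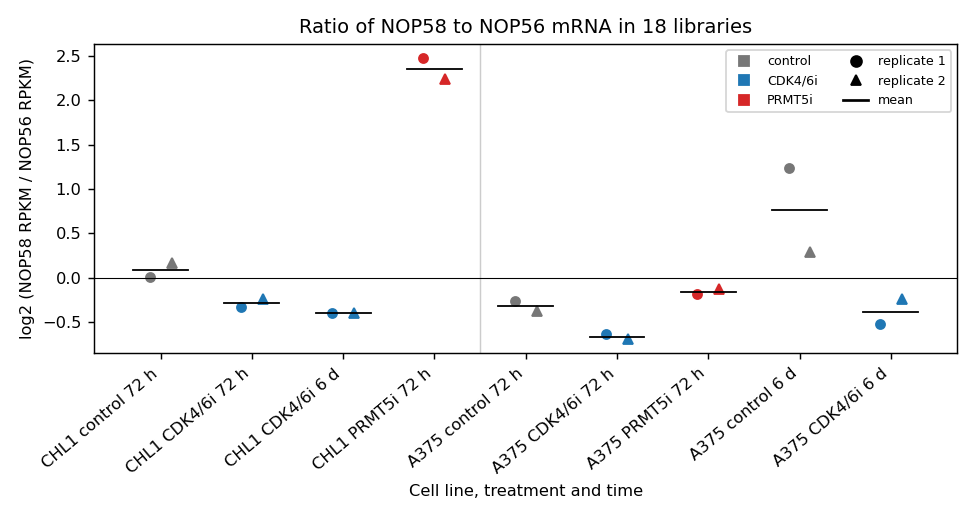
Log2 ratio of NOP58 to NOP56 level (RPKM) in each of the 18 libraries, with points for replicates and a line for the mean of 2. The CHL1 PRMT5i libraries were the highest at 2.48 and 2.24, followed by the A375 controls at 6 days at 1.24 and 0.29.

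In A375 PRMT5i called 0 of the 10 genes by edgeR, beside 2.61% of all genes, with 0 at an unadjusted p below 0.05 and 0 called by DESeq2. With the replicate number as a block 4 genes were called, MYC, FBL and POLR1B higher and NOP56 lower, beside 6113 of the 20705 genes. FBL was at 160 and 189 RPKM beside 123 and 149 in the control, above without overlap (log2 0.35, 95% interval -0.12 to 0.81). NOP56 was at 65.7 and 68.8 RPKM beside 71.5 and 86.4 (log2 -0.24, 95% interval -0.74 to 0.25), below without overlap. MYC was at 5.04 and 5.21 RPKM beside 3.90 and 4.03 (log2 0.36, 95% interval -0.16 to 0.87). Treated libraries lay above both controls in 3 of the 10 genes, MYC, FBL and POLR1B, beside 26.9% of all genes, and below in 1, beside 26.2%.

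The response to PRMT5i itself differed between the lines in 5 of the 10 genes, 1 higher and 4 lower in CHL1, beside 40.9% of all genes (18.8% higher and 22.1% lower). CHL1 minus A375 was -1.61 on the log2 scale for FBL (SE 0.30, adjusted p = 0.00061), -1.29 for NOP56 (SE 0.29, adjusted p = 0.0022), -0.95 for MYC (SE 0.29, adjusted p = 0.013), -0.79 for DKC1 (SE 0.30, adjusted p = 0.042) and 0.82 for NOP58 (SE 0.21, adjusted p = 0.0051). FBL, NOP56 and DKC1 also differed with the GC offset (log2 -0.76, -0.83 and -1.01), whereas MYC was at -0.73 with adjusted p = 0.069 and NOP58 at 0.09, and POLR1B was called (-0.88). Without single libraries the count was 3 to 6, MYC being lost without replicate 1 of the A375 control (adjusted p = 0.058) and DKC1 without any of 4 libraries. The call of DKC1 was also lost by DESeq2 (adjusted p = 0.070), with median-of-ratios scaling (adjusted p = 0.086) and over the libraries with numbered replicates (adjusted p = 0.052).

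The inhibitors act on unlike targets and share the time of 72 hours, at which they were compared. In CHL1 7 of the 10 genes differed, 4 higher and 3 lower under PRMT5i than under CDK4/6i, beside 57.8% of all genes (28.4% higher and 29.4% lower). NPM1, GAR1, NOP58 and NCL were higher under PRMT5i by log2 1.17, 1.15, 1.11 and 0.81, and NOP56, MYC and FBL lower by log2 differences of -1.54, -0.71 and -0.57. With the GC offset 4 genes were called, NOP56 (-1.11, adjusted p = 0.00011), MYC (-0.54, adjusted p = 0.0075), POLR1B (-0.64) and GAR1 (0.57), beside 41.2% of the genes with a GC value. FBL reversed to 0.27. Without single libraries 5 to 7 were called, with NCL lost without any of 3 libraries and FBL without replicate 1 of either group. In A375 1 of the 10 genes differed, beside 5.45% of all genes, or 8, all higher under PRMT5i, with the replicate number as a block, beside 7167 of the 20705 genes. FBL was at 160 and 189 RPKM under PRMT5i and at 90.3 and 99.6 under CDK4/6i, without overlap (1.89-fold higher, log2 0.92, SE 0.22, adjusted p = 0.025). Without any 1 of the 4 libraries of these groups this call was lost, with log2 differences of 0.80 to 1.03.

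The partners and rivals of MYC were described by a list of 11 genes, the MYC, MAX and MLX network. MXD4, which pairs with MAX and opposes MYC at shared sites, rose with CDK4/6i in each comparison, while MYC was called in none of them. In CHL1 its level was 39.4 ± 2.78 CPM (SD, n = 2) without drug, and with CDK4/6i it was 101 ± 10.3 CPM after 72 hours and 110.4 ± 0.09 CPM after 6 days (log2 1.35, adjusted p = 0.014, and log2 1.5, adjusted p = 0.0030). In A375 it was 25.3 ± 1.22 CPM without drug at 72 hours and 108 ± 4.87 CPM with CDK4/6i (log2 2.04, adjusted p = 1.4e-05), and 16.3 ± 0.78 and 55.4 ± 7.09 CPM at 6 days (log2 1.77, adjusted p = 7.0e-06). With the GC offset the rises were log2 1.28, 1.43, 1.92 and 1.19. Both A375 calls held without any single library, that at 72 hours in CHL1 was lost without any 1 of its 4 libraries (log2 1.24 to 1.45, adjusted p 0.067 to 0.16), and that at 6 days in CHL1 without replicate 2 of the control (adjusted p = 0.052). Under PRMT5i MXD4 rose in A375 to 41.4 ± 2.37 CPM (log2 0.70, adjusted p = 0.046) and fell in CHL1 to 12.8 ± 6.09 CPM (log2 -1.61, adjusted p = 0.00038, or -0.57 with the GC offset). MXD3 fell with CDK4/6i at 72 hours in A375 (log2 -1.24, adjusted p = 0.0052) and with PRMT5i in A375 (log2 -1.11, adjusted p = 0.033) and in CHL1 (log2 -2.01, adjusted p = 0.00019, or -0.78 with the GC offset). Both A375 calls under PRMT5i, of MXD4 and MXD3, were lost without any 1 of the 4 libraries, and that of MXD3 with CDK4/6i without any of 3 libraries. MAX was at 25.5 to 36.1 CPM in the 9 groups and was called in none of the 6 comparisons. MYCN, a relative of MYC, had at most 14 counts in any library.

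Of the 11 genes of this network, CDK4/6i in CHL1 called 1 higher at 72 hours and 2 higher at 6 days, beside 4.98% and 16.6% of all genes. CDK4/6i in A375 called 1 higher and 1 lower at 72 hours, beside 13.3% of all genes, and 3 higher at 6 days, beside 43.1%. With the GC offset 2 were higher and 1 lower at 6 days, beside 37.7% of the genes with a GC value. PRMT5i called 1 higher and 1 lower in A375, beside 2.61%, and 3 higher and 6 lower in CHL1, beside 54%, or 1 and 3 with the GC offset, beside 29%. Of those higher in CHL1 without the offset MXD1 rose furthest (log2 0.73, or 0.23 with the offset). Of 10 genes known as MYC targets outside the nucleolus 0 were called at 72 hours of CDK4/6i in either line (edgeR, with 1 in CHL1 and 2 in A375 at an unadjusted p below 0.05, and 0 by DESeq2). With the GC offset 0 were called in CHL1 and 2 in A375, both lower, beside 13.6% and 24.3% of the genes with a GC value. At 6 days in CHL1 3 of them fell, beside 7.8% of all genes. Among them was ODC1, the first enzyme of polyamine synthesis (log2 -1.17, adjusted p = 0.048), with a treated level of 707 ± 503 CPM (SD, n = 2). Its call was lost without replicate 2 of the treated group (log2 -0.58) or either control and was kept in 4 of 11 alternatives. LDHA, which makes lactate, also fell (log2 -0.94, adjusted p = 0.0077). At 6 days in A375 4 rose and 2 fell, beside 21.8% and 21.3% of all genes. With the GC offset 1 rose and 0 fell, beside 37.7% of the genes with a GC value in either direction. CDK4 rose furthest (log2 0.67, or 0.27 with the offset) and EIF4E fell furthest (-1.16, or -0.05). Under PRMT5i 3 rose and 4 fell in CHL1, beside 26.4% and 27.6% of all genes, or 0 and 3 with the offset, beside 29% in either direction. Here EIF4E rose furthest (log2 1.31, or 0.02 with the offset) and CAD fell furthest (-1.60, or -0.525). In A375 PRMT5i called 0, beside 2.61% of all genes (edgeR and DESeq2, with 2 at an unadjusted p below 0.05).

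The wider ribosome-making machinery was described by 4 lists. CDK4/6i called 4.98% and 16.6% of all genes at 72 hours and 6 days in CHL1, and 13.3% and 43.1% in A375. Of 11 snoRNP partners and assembly factors, CDK4/6i called 0 at both times in CHL1 by edgeR and by DESeq2, with 1 at 72 hours and 0 at 6 days at an unadjusted p below 0.05. In A375 it called 1 at 72 hours, NAF1, a factor that helps to build box H/ACA particles, which fell (log2 -0.82, adjusted p = 0.017) and was also lower at 6 days (log2 -1.43, adjusted p = 0.00010, or -1.17 with the GC offset). The call at 72 hours was lost without any 1 of the 4 libraries. Of 13 RNA polymerase I subunits and factors the counts in CHL1 were the same, 0 at both times by both tools with 1 and 0 at an unadjusted p below 0.05. In A375 1 was called at 72 hours, TAF1B, a subunit of the promoter factor SL1 (log2 -0.95, adjusted p = 0.0029). It had also fallen at 6 days (log2 -1.29, adjusted p = 8.3e-05, or -0.54 with the GC offset). At 6 days in A375 genes of both lists were called in both directions, beside 21.8% of all genes higher and 21.3% lower. Of the snoRNP partners 2 rose and 3 fell, or 1 and 1 with the offset, and of the RNA polymerase I list 4 and 4, or 3 and 1. RUVBL2 rose furthest in the first list (log2 0.69, or 0.12 with the offset) and POLR1A in the second (log2 0.89, or 0.495 with the offset). Of 43 small subunit processing factors 0 were called at 72 hours in CHL1 by edgeR, 2 by DESeq2 and 8 at an unadjusted p below 0.05. By 6 days 8 had fallen, beside 7.8% of all genes, with DDX10, an RNA helicase, furthest (log2 -0.79, adjusted p = 0.0053). The median over the list at 6 days was -0.29, beside 0.03 over all genes. In A375 2 of the 43 fell at 72 hours, UTP20 furthest (log2 -0.73, adjusted p = 0.010). The call of UTP20 was lost without any 1 of its 4 libraries, and that of TAF1B at 72 hours without replicate 2 of either group. Of 40 large subunit processing factors 1 rose and 2 fell at 6 days in CHL1. The 1 that rose was URB1 (log2 0.86, adjusted p = 0.0056), which was also the 1 called at 72 hours (log2 0.67, adjusted p = 0.040), and MDN1, a large ATPase that remodels the particle, fell furthest (log2 -0.64, adjusted p = 0.014). The calls of URB1 and MDN1 at 6 days were lost without either control library, that of DDX10 without replicate 2 of the control, and that of URB1 at 72 hours, kept in 7 of 12 alternatives, without any 1 of its 4 libraries. In A375 1 of the large subunit factors fell at 72 hours, BRIX1 (log2 -0.695, adjusted p = 0.043), a call kept in 6 of 12 alternatives. With the GC offset the counts at 6 days in CHL1 were larger, with 2 higher and 14 lower of the small subunit factors and 1 higher and 9 lower of the large subunit factors. Over all genes with a GC value the share called was 18.6% without the offset and 28.5% with it.

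In CHL1 PRMT5i called genes of these 4 lists in both directions, in the comparison that called 26.4% of all genes higher and 27.6% lower. Of the snoRNP partners 4 rose and 6 fell, of the RNA polymerase I list 5 and 5, of the small subunit factors 19 and 15, and of the large subunit factors 14 and 20. With the GC offset these counts were 3 and 4, 4 and 1, 3 and 9, and 1 and 8, in the same order, beside 29% of the genes with a GC value in either direction. Among the genes of largest change in each direction of these lists, 5 passed with and without the offset. They were TAF1D, an SL1 subunit (log2 1.83, and 0.68 with the offset), LTV1, a small subunit assembly factor (1.52 and 0.89), ZNHIT6, a box C/D assembly factor (1.5 and 0.51), RRP7A of the small subunit list (-1.98 and -0.98) and FTSJ3, a methyltransferase of the large subunit list (-1.75 and -0.99). The other 3, RUVBL2, TAF1C and RSL24D1, passed without the offset (log2 -1.54, -1.51 and 1.52) and missed the threshold with it (-0.31, -0.26 and 0.28). In A375 PRMT5i called 0 genes of these 4 lists by edgeR, beside 2.61% of all genes, and 1 by DESeq2. An unadjusted p below 0.05 was found for 1, 2, 8 and 11 in the same order. With the GC offset 4 small subunit and 7 large subunit factors rose, where 8.41% of the genes with a GC value were called in either direction. At 6 days of CDK4/6i in A375 the large subunit factors were called higher in 14 cases and lower in 6, beside 21.8% and 21.3% of all genes. With the offset these counts were 16 and 3, where 37.7% of the genes with a GC value were called in either direction. RRP12 rose furthest (log2 1.11, or 0.57 with the offset) and RRP15 fell furthest (log2 -1.25, or -0.18 with the offset). The small subunit factors were called higher in 9 and lower in 6, or 11 and 2 with the offset. PDCD11 rose furthest (log2 1.33, or 0.90 with the offset) and WDR36 fell furthest (log2 -0.98, or -0.06 with the offset).

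Across the 18 libraries, centred on the mean of each line, the 9 nucleolar genes did not move as a block. NPM1 and NOP58 were most alike (Pearson r = 0.95), followed by NCL and GAR1 (r = 0.93), and NOP56 and NOP58 moved in opposite directions (r = -0.74). MYC was most like NOP56 within the set (r = 0.78) and ran opposite to NOP58 (r = -0.63). Among 15648 genes that averaged at least 1 CPM, BFAR, BTN3A3 and ATXN7L3B had the pattern most like that of MYC (r = 0.92, 0.90 and 0.90), and CCT2, SUPT16H and SF3A3 that most like the mean of the 9 nucleolar genes (r = 0.96, 0.95 and 0.94). These correlations describe libraries that share cell line, treatment and GC trend, and are given without a test.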

How the data were processed

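The authors sequenced poly-A RNA in paired ends, aligned the reads to GRCh37 with HISAT2 (version 2.0.4 in the submitters' processing notes), counted them per gene with HTSeq (0.11.2 in the same notes) and removed lowly expressed genes. The deposited table holds whole-number counts for 20705 gene symbols, and since totals differ between libraries they were treated as counts that had not been normalized. Libraries (16213475 to 37424081 counts) were grouped by the labels for cell line, treatment and time. Counts were tested with edgeR 4.0.16 in R 4.3.3 (TMM, quasi-likelihood test, Benjamini-Hochberg adjustment over all genes, threshold 0.05), with all libraries of a line in a fit and all 18 for differences between lines. SE is the log2 fold change over the square root of F, and intervals are 95%. RPKM used the length of the canonical transcript and the levels TMM-adjusted totals, and log2 CPM a prior count of 2.

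GC content came from the longest transcript in GENCODE release 44 on GRCh37, for 15208 genes matched by symbol and 1148 by an older symbol. The GC offset was a loess curve (span 0.4) through the deviations of a library from the mean log2 CPM. Alternatives were median-of-ratios scaling, DESeq2 1.42.0, a filter of 1 CPM in 2 libraries, the GC offset, only the compared groups, a replicate block, the 72-hour A375 control, and leaving out each library. Leaving out the A375 libraries that carry no replicate number, and the 72-hour control with the GC offset, were chosen after seeing the data. The tests were run on simulated data first. The genes and lists were chosen with earlier results of these data known. Named genes are the 10 genes, the called gene of largest change in each direction in each list, and the 3 genes most alike. MXD4, where MXD3 changed more, LDHA, MAX and MYCN were added after their values were seen. Motifs were searched as exact letters on both strands.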

Additional observations from a re-analysis of the deposited data

Results flagged for a closer look

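The response to 72 hours of PRMT5i differed between CHL1 and A375 by a test of the difference itself, in edgeR over 18 libraries, for 5 of the 10 genes, beside 40.9% of all genes. CHL1 minus A375 was -0.95 on the log2 scale for MYC, -1.61 for FBL, -1.29 for NOP56, -0.79 for DKC1 and 0.82 for NOP58. MYC fell in CHL1 (log2 -0.57) and was at 0.36 in A375, FBL fell in CHL1 (-1.23) and was at 0.35, NOP56 fell in CHL1 (-1.50) and was at -0.24, DKC1 fell in CHL1 (-0.55) and was at 0.21, and NOP58 rose in CHL1 (0.78) and was at -0.08. The CHL1 PRMT5i libraries had the strongest GC trend of their line, and with the GC offset the differences were -0.73, -0.76, -0.83, -1.01 and 0.09 in the order MYC, FBL, NOP56, DKC1 and NOP58. The call of DKC1 was lost in 7 of 15 alternatives, DESeq2 among them (adjusted p = 0.070). Library set, medium and line differ together between these responses and cannot be told apart. Groups of 2 libraries are too small for a search for single libraries that stand apart.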

How the results depend on the processing

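Of 1010 values of the 10 genes under alternatives that kept all replicates, 909 kept their direction or stayed uncalled, 30 lost and 62 gained a call and 9 reversed. Counts of called genes moved as follows, with the reported count first. The GC offset gave 1 for 0 (CHL1 CDK4/6i 72 hours), 3 for 7 (CHL1 PRMT5i), 1 for 0 (A375 CDK4/6i 72 hours), 2 for 4 (A375 CDK4/6i 6 days), 4 for 7 (CHL1 PRMT5i against CDK4/6i) and 6 for 2 (A375 controls). DESeq2 gave 1 for 0 (CHL1 CDK4/6i 72 hours), 5 for 3 (CHL1 CDK4/6i 6 days) and 2 for 1 (A375 PRMT5i against CDK4/6i). Fitting only the compared groups gave 5 for 0 (CHL1 CDK4/6i 72 hours), 3 for 0 (A375 CDK4/6i 72 hours), 1 for 4 (A375 CDK4/6i 6 days) and 4 for 1 (A375 PRMT5i against CDK4/6i). Only libraries with numbered replicates gave 3 for 0 (A375 CDK4/6i 72 hours) and 4 for 1 (A375 PRMT5i against CDK4/6i). The 72-hour control gave 1 for 4 (A375 CDK4/6i 6 days), or 3 with the GC offset.

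With a replicate block the counts were 5 for 3 (CHL1 CDK4/6i 6 days), 6 for 0 (A375 CDK4/6i 72 hours), 4 for 0 (A375 PRMT5i), or 6 with the GC offset, 8 for 1 (A375 PRMT5i against CDK4/6i) and, with the GC offset, 1 for 0 (CHL1 CDK4/6i 72 hours) and 5 for 7 (CHL1 PRMT5i, where the offset alone gave 3). Without the offset the counts of the other comparisons moved by less than 1.5 times with the block. Between the lines' controls it lost NPM1 and NOLC1 (adjusted p = 0.18 and 0.054) and gained DKC1 (0.037), and URB1 in CHL1 at 72 hours was lost (0.05008). The labels do not say that equal numbers pair replicates, the deviations of equal numbers correlated at -0.26 to 0.32 in CHL1 and 0.13 to 0.38 in A375, and the 6-day A375 libraries carry no number, so no block could be fitted there.

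Reversed values were those of NPM1 in CHL1 under PRMT5i (log2 -0.27 with the GC offset, -0.31 with block and offset), FBL in CHL1 PRMT5i against CDK4/6i (0.27 with the offset), and NPM1 and NOP58 between the A375 controls (-0.77 and -0.43 with the offset). Against the 72-hour control, without and with the offset, the A375 values at 6 days of CDK4/6i reversed for FBL (-1.11 and -1.05), NOP56 (-0.27 and -0.33), RUVBL2 (-0.60 and -0.37) and CDK4 (-0.86 and -0.89). A value counted as reversed where its sign changed and either value was called. The reported values of FBL at 6 days (log2 0.11) and of NPM1 and NOP58 between the A375 controls (0.085 and 0.106) were not called. The cause was not tested. Leaving out a library, with a lone sample assumed to vary like the other groups, gave 0 to 3 calls in CHL1 CDK4/6i at 6 days, 4 to 7 in CHL1 PRMT5i, 1 to 7 in A375 CDK4/6i at 6 days, 5 to 7 in CHL1 PRMT5i against CDK4/6i, 0 in A375 PRMT5i against CDK4/6i, 0 to 3 for the difference between A375 responses, 1 to 3 between the A375 controls, 3 to 6 for the PRMT5i difference between lines, 3 to 5 between the lines' controls, and 0 elsewhere. By a chi-square for each group, counting noise was below the spread between replicates (7.6 to 118 per degree of freedom). This was not computed gene by gene, and the part of depth in the SE of single genes was not tested.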
